A study of Mus musculus with 3 samples.

Results

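The aminoacyl tRNA synthetase genes were examined in RNA-seq libraries of mouse pre-B cells. They were taken by name, as gene symbols of 1 to 3 letters followed by "ars" with an optional final 1, 2 or l, together with Eprs, Farsa and Farsb. The rule found 37 of the 26286 genes in the count table, 20 for the cytosol and 17 for mitochondria. It used no measured value. Tarsl2, a threonyl synthetase-like gene, fell outside the name pattern and is given below with the related genes.

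The 3 libraries formed 1 group and no second condition was measured, so levels and the spread between libraries are what can be described. The cells came from the bone marrow of bitransgenic CAG-rtTA3;TRE-GFP-shLuc.1309 mice given Dox for 3 days, which turns on a hairpin against luciferase linked to GFP; it served as a control hairpin and was carried by every library. Cells were sorted as GFP+, B220+, IgM-, Kit- and CD25+. Total counts were 12418054, 12021576 and 32086649 in replicates 1, 2 and 3. The labels do not say whether the libraries came from separate animals. Sex-linked genes, given below, set replicate 1 apart from replicates 2 and 3, so the 3 libraries did not all come from 1 animal, but replicates 2 and 3 may have. The p-values measure only the spread between these samples, which may be technical in part.

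Aminoacyl tRNA synthetases join each amino acid to its own tRNA, the step that sets the reading of the genetic code. Animal cells hold separate nuclear genes for the cytosolic and mitochondrial enzymes of most amino acids. Gars and Kars serve both compartments, Eprs carries the glutamyl and prolyl activities in a single chain, and mitochondria make glutaminyl-tRNA through an amidotransferase. Several cytosolic enzymes sit in a multisynthetase complex held by the scaffold proteins Aimp1, Aimp2 and Eef1e1. Many cytosolic synthetase genes are known targets of Atf4, the transcription factor of the amino acid response.

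Pieces of the promoters that hold the amino acid response motif are shown first, because matches were found among cytosolic members and in no mitochondrial window. The 8-base motif TGATGNAA, with the reverse form TTNCATCA, was searched on both strands in RefSeq windows (build GRCm38.p6) of 250 bases before to 50 bases after each gene start. Windows were held for 27 members, and 5 of them, or 18.5%, had a match, against 4.51% of all 27025 genes with a window. All 5 were cytosolic genes, of 13 cytosolic members with a window, and 0 of 14 mitochondrial members had a match. In the pieces below, written 5′ to 3′ on the gene's strand, capitals mark the motif.
Aars, chr8:111033840-111033869, strand +: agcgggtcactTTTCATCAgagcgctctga
Gars, chr6:55037960-55037989, strand +: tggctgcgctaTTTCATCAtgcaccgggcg
Iars, chr13:49682126-49682155, strand +: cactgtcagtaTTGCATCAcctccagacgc
Tars, chr15:11399655-11399684, strand -: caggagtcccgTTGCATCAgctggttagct
Yars, chr4:129189895-129189924, strand +: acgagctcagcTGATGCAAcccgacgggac
Counted from the gene start, the matches shown began at -30 in Gars and -15 in Tars, and just after the start in the others, at 3 in Yars, 7 in Iars and 9 in Aars. A match is a description of the letters and says nothing of binding in these cells. Members with no entry included Cars, Hars, Lars, Nars, Rars, Vars, Wars, Hars2 and Pars2.

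The labelled cell type was checked against markers. All 8 pre-B markers (among them Cd79a, Cd79b, Vpreb3 and Rag1) had at least 1 RPKM in every library, with summed levels of 3847 to 4312 RPKM. RPKM is the read count scaled to the length of the gene and the depth of the library. The summed levels of the 4 T cell markers were 0.556 to 1.14 RPKM, those of the 4 erythroid markers 6.87 to 7.77, and those of the 4 monocyte and macrophage markers 17.5 to 22.8. None of these markers was at 0 in every library. The 8 neutrophil markers summed to 1305, 1564 and 2317 RPKM in replicates 1, 2 and 3, mostly S100a9 and S100a8. Ngp, Camp, Lcn2 and Ltf had means of 173, 97.3, 77.2 and 54.5, and Elane and Mpo of 2.81 and 3.85. The 6 proliferation markers summed to 1145, 930.4 and 1331. Replicate 1 stood apart in sex-linked genes, with 22609 counts of Xist against 94 and 70 in replicates 2 and 3, and 1, 1950 and 4881 counts of Ddx3y. In bulk RNA, fewer cells of a type and less RNA per cell cannot be told apart, and the part of other cells in the synthetase levels was not tested.

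All 37 synthetase genes were expressed, with at least 1 RPKM in every library and 34 or more counts in each. Mean levels ran from 1.65 to 190.4 RPKM, and as a share of each library's counts the genes held 0.296% in replicate 1, 0.305% in replicate 2 and 0.310% in replicate 3. The cytosolic genes had a median of 4.93 ± 0.06 on the log2(RPKM + 0.5) scale (SD, n = 3), the mitochondrial genes one of 3.23 ± 0.003, and all 17423 genes with a count one of 2.57 ± 0.02. The difference between the compartments, taken within each library, was 1.70 ± 0.06.

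**Figure D1:**
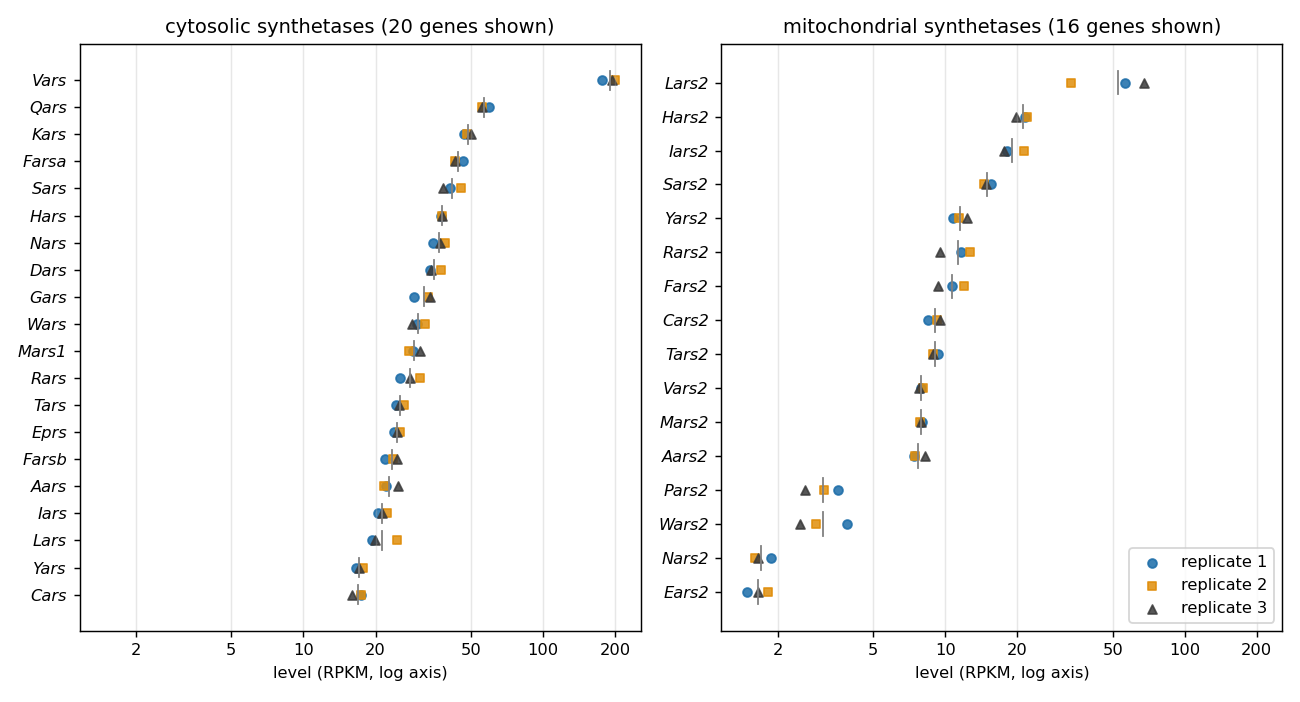
Level of each synthetase gene in RPKM (log axis), with a symbol for each of the 3 libraries and a grey bar at the mean, for 20 cytosolic genes on the left and 16 mitochondrial genes on the right. Vars stands alone near 190.4 RPKM, and the points of Lars2 are the most widely spaced.

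Vars, the valyl synthetase, was far above the other cytosolic genes. It had 176, 200.4 and 195 RPKM in replicates 1, 2 and 3, a mean of 190.4 ± 12.6, which placed it at rank 299 of all genes. All 3 libraries were high, and none of them overlapped with a library of any other synthetase. Vars exceeded the median of the other 19 cytosolic genes 6.50 ± 0.35-fold and the next, Qars, 3.34-fold. It held 24.3% of the summed RPKM of the cytosolic genes. No exon of another gene overlapped Vars in the GRCm38 annotation, and 0.741% of the 31-base words of its transcripts occurred in another gene, the predicted gene Gm14780.

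Below Vars the cytosolic genes lay close together, between 16.9 and 57.0 RPKM. Qars, the glutaminyl synthetase, had 59.8, 55.6 and 55.5 RPKM. Kars, the lysyl synthetase of both compartments, had 47.0, 48.4 and 50.3. Sars, for serine, had 41.0, 45.6 and 38.5 RPKM. Only Farsa, given below, lay between them in mean level, and the ranges of Kars and Sars did not overlap.

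A middle group held Hars (37.8 ± 0.25 RPKM), Nars (37.0 ± 2.29), Dars (35.1 ± 2.18), Gars (31.9 ± 2.67) and Wars (30.1 ± 1.81), the synthetases of histidine, asparagine, aspartate, glycine and tryptophan. By coefficient of variation, 0.65%, the libraries of Hars were the closest of any member, at 37.5, 37.9 and 37.9 RPKM. Hars and Nars, neighbours in this order, differed by less than the spread of Nars.

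At the low end stood Aars (22.9 ± 1.76 RPKM), Iars (21.3 ± 0.91), Lars (21.3 ± 2.92), Yars (17.1 ± 0.61) and Cars (16.9 ± 0.79), for alanine, isoleucine, leucine, tyrosine and cysteine. Iars and Lars had the same mean to 3 digits, and Yars and Cars differed by less than either SD. Lars had 19.3, 24.6 and 19.9 RPKM, so that only replicate 2 was set apart. Some of these counts are uncertain: 14.7% of the 31-base words of Iars occurred in another gene, mostly Gm4849, and 14.3% of the exon bases of Aars were shared with Exosc6 on the same strand.

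The cytosolic phenylalanyl enzyme is built from the chains of Farsa and Farsb in equal number. Farsa had 46.6, 42.9 and 42.9 RPKM and Farsb 21.9, 23.8 and 24.5. Farsa was higher in every library, by 0.90 ± 0.15 on the log2(RPKM + 0.5) scale, or 1.87-fold. Farsb shared 9.47% of its exon bases with Sgpp2 on the opposite strand, and the labels do not say whether the counting used strand. The same holds for Hars and Hars2, which share 195 exon bases on opposite strands.

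The 8 synthetases of the multisynthetase complex spanned a 2.68-fold range. Qars and Kars were the highest, followed by Dars, then Mars1 for methionine (29.0 ± 1.66 RPKM), Rars for arginine (27.9 ± 2.65), Eprs (24.6 ± 0.65), Iars and Lars. Their median, 4.85 ± 0.06 on the log2(RPKM + 0.5) scale, lay near that of the 12 cytosolic genes outside the complex, 4.97 ± 0.08. Of the scaffolds, Aimp1 had 44.3, 47.3 and 38.9 RPKM, Eef1e1 had 20.8, 22.2 and 20.5, and Aimp2 had 15.8, 14.7 and 15.9. Aimp1 was the highest scaffold in each library, and Aimp2 lay below every synthetase of the complex.

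Synthetases fall into class I and class II by the fold of their catalytic domain. Eprs, with its glutamyl and prolyl activities, was counted once, in class I, for the glutamyl activity. Among cytosolic genes, the 10 of class I had a median of 4.71 ± 0.05 and the 10 of class II one of 5.18 ± 0.07 on the log2(RPKM + 0.5) scale, although Vars and Qars, the highest, both belong to class I. Over both compartments the medians were 4.28 ± 0.15 for 19 genes and 4.56 ± 0.08 for 18.

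Mitochondrial synthetases were lower, with a median of 9.03 RPKM over the 17 gene means, and Lars2 was the exception. Lars2, the mitochondrial leucyl synthetase, had 56.1, 33.5 and 67.9 RPKM, above every other mitochondrial gene in each library. The Lars2 level carries a limit given below. A ribosomal RNA gene, Rn28s1, had the same order over the libraries, and the part of Rn28s1 in the Lars2 counts was not tested. Next came Hars2 (21.1 ± 1.13 RPKM), Iars2 (19.0 ± 2.09), Sars2 (14.9 ± 0.49), Yars2 (11.5 ± 0.81), Rars2 (11.3 ± 1.58) and Fars2 (10.6 ± 1.36). Cars2, Tars2, Vars2, Mars2 and Aars2 lay between 7.68 and 9.09 RPKM. Of Iars2, 22.9% of the 8885 annotated exon bases were shared with Rab3gap2 on the opposite strand, so its level is uncertain. The deposited length of Iars2 was 3540 bases, and how many of the shared bases were counted is not known.

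The lowest synthetases were all mitochondrial. Wars2 had 3.87, 2.89 and 2.48 RPKM and Pars2, for proline, 3.56, 3.12 and 2.59. Nars2 had 1.86, 1.60 and 1.65 RPKM. Ears2, which charges glutamate, had 1.48, 1.81 and 1.65 RPKM from 34, 40 and 98 counts. The libraries of Ears2 and Nars2 overlapped, whereas those of Wars2 and Pars2 were above both.

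Set against its mitochondrial partner, the cytosolic gene was higher in every library for 16 of 17 pairs. The difference on the log2(RPKM + 0.5) scale, which understates it for low genes, was 4.50 ± 0.10 for Vars minus Vars2 (22.6-fold) and 4.09 ± 0.18 for Nars minus Nars2 (17.0-fold). Eprs exceeded Ears2 by 3.55 ± 0.07 and Pars2 by 2.82 ± 0.22, and Wars exceeded Wars2 by 3.11 ± 0.28. At the other end, Yars exceeded Yars2 by 0.56 ± 0.09 and Iars exceeded Iars2 by 0.17 ± 0.11. For leucine the order was turned: Lars minus Lars2 was -1.52, -0.44 and -1.75 in replicates 1, 2 and 3, a mean of -1.23 ± 0.70. The limit on the Lars2 level given above holds for this pair too.

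**Figure D2:**
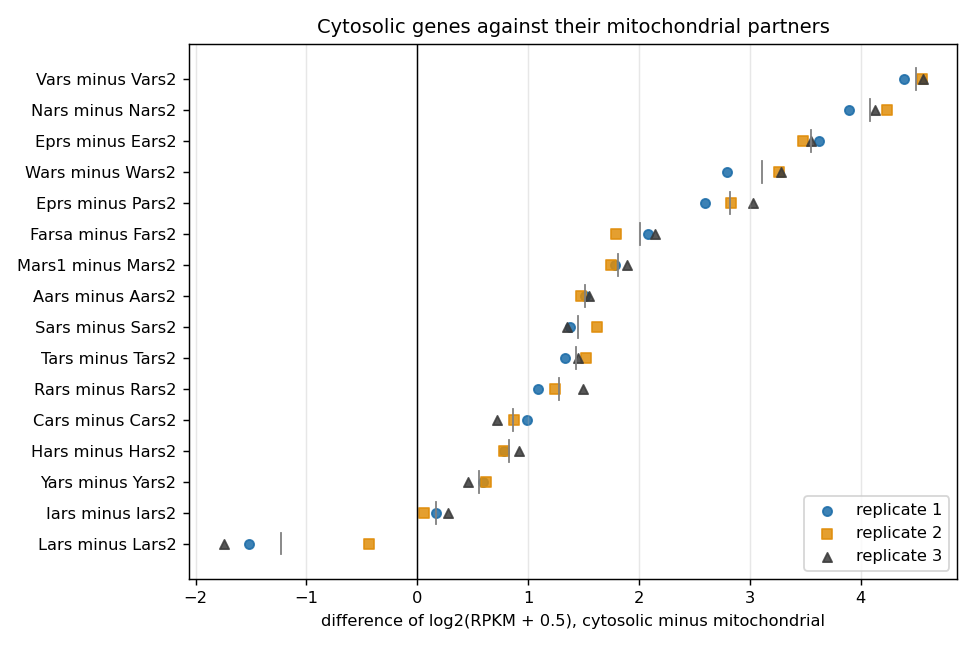
Difference in log2(RPKM + 0.5) between each cytosolic synthetase gene and its mitochondrial partner, with a symbol for each of the 3 libraries and a grey bar at the mean. Of the 16 pairs shown, 15 lie to the right of 0 in every library and only Lars minus Lars2 lies to the left.

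The use of each amino acid was then set beside the level of its cytosolic synthetase. Codons were counted in 20482 genes with a reading frame in the GRCm38 annotation and weighted by RPKM. Leucine took the largest share, 9.53%, and Lars ranked 18 of the 20 amino acids by synthetase level. Valine took 5.98%, rank 8 of the codons, against rank 1 of the levels for Vars. Tryptophan took the smallest share, 1.06%, and Wars ranked 10. Over 19 amino acids, each with its own synthetase (Eprs counted once, for glutamate, and Farsa taken for phenylalanine), Pearson's r with the log2 level was 0.13 and Spearman's rho 0.07, and without valine 0.07 and 0.02. These points share the same libraries and are a description. The codon shares differed little between the libraries, with leucine at 9.54%, 9.54% and 9.52%.

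**Figure D3:**
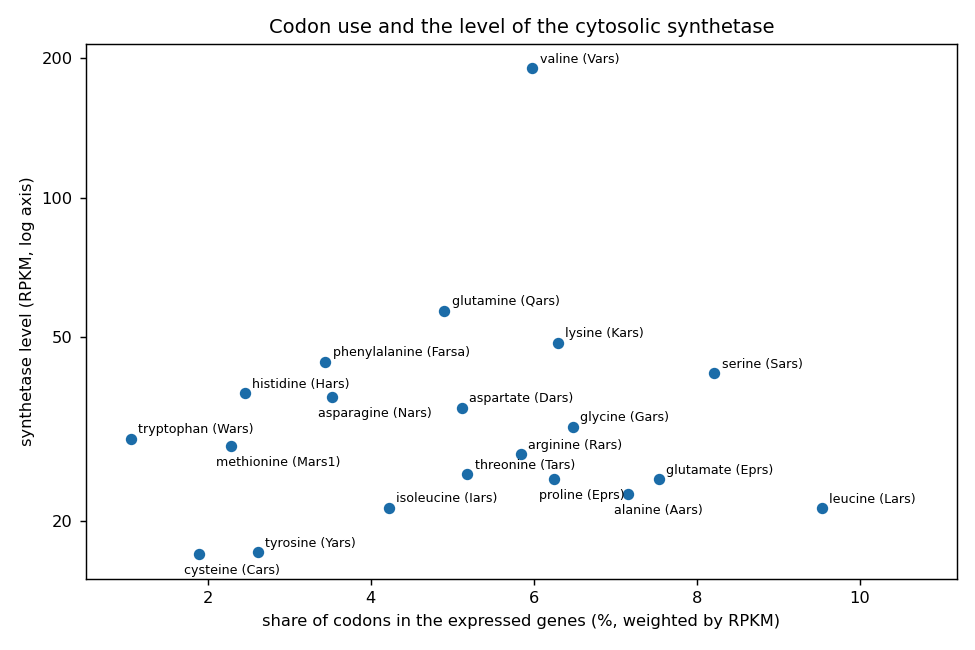
Share of codons for each amino acid in the expressed genes (percent, weighted by RPKM) against the mean RPKM of its cytosolic synthetase (log axis), 1 point for each of 20 amino acids. Valine lies far above the others at a middling codon share, and leucine has the largest share with a low synthetase level.

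Spread between the libraries was tested for every gene against counting noise alone (chi-square against Poisson counts, Benjamini-Hochberg over 12147 genes). It was exceeded by 19 of 37 synthetases, 51.4%, against 54.6% of all genes tested, so the share is near the background. These were 11 cytosolic genes, among them Vars, Lars, Sars, Aars and Gars, and 8 mitochondrial genes, among them Lars2, Wars2, Iars2 and Rars2. For the other 18, including Hars, Eprs, Tars, Yars, Mars2 and Vars2, the spread did not pass the test. With 1 library left out the count was 12 without replicate 1, 9 without replicate 2 and 10 without replicate 3. These were 32.4%, 24.3% and 27% of the synthetases, against 43.3%, 32.9% and 25.7% of all genes. The coefficient of variation had a median of 6.0% over the synthetases and of 9.76% over all genes tested. The synthetases also had the higher median level, 21.3 against 13.2 RPKM, and genes of equal level were not compared.

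Lars2 varied most of all the synthetases. Replicate 3 had 2.03 times and replicate 1 had 1.67 times the level of replicate 2. It was the only member, chosen here after its values were seen, whose highest library was at least 2 times its lowest, a spread found in 3.84% of all genes tested. The next widest was Wars2, at 1.56 times. The counts of Lars2 were 2704, 1558 and 8475, and its Poisson test gave an adjusted p of 4.77e-149 (chi-square, over 3 libraries and all genes).

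The ribosomal RNA gene Rn28s1 had the same order over the libraries as Lars2, at 209, 118 and 379 RPKM. It is a measure of the ribosomal RNA left in a library, and its part in the Lars2 counts was not tested. No 31-base word of the Lars2 transcripts occurred in the mitochondrial ribosomal RNA mt-Rnr2, which is not Rn28s1. Words shared with Rn28s1 itself were not counted on their own. Among the annotated GRCm38 transcripts, 0.923% of the Lars2 words occurred in some other gene, and no exon of another gene overlapped Lars2. Whether Rn28s1 was among those transcripts was not checked, so this share sets no limit on words shared with Rn28s1. The order of proliferation markers over the libraries, replicate 3 highest and replicate 2 lowest, was also that of Lars2, and this too was not tested. Lars, the cytosolic gene for the same amino acid, had its highest level in replicate 2, where Lars2 was lowest.

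**Figure D4:**
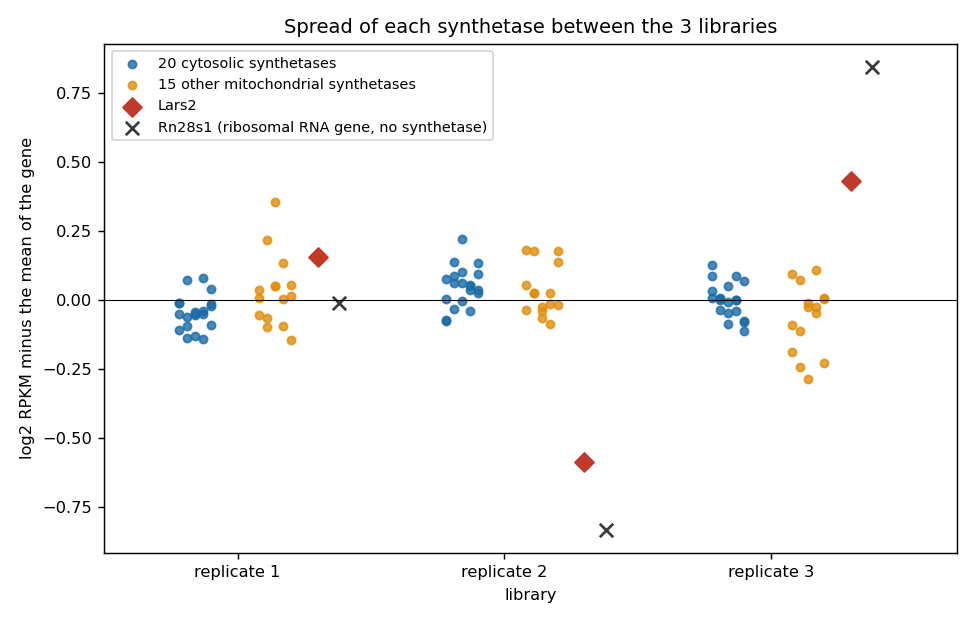
Deviation of each gene's log2 RPKM from its own mean over the 3 libraries, for 20 cytosolic synthetases, 15 other mitochondrial synthetases, Lars2 and the ribosomal RNA gene Rn28s1. Lars2 lies outside the range of the other synthetases shown in replicates 2 and 3, on the same side as Rn28s1.

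Ranked by library, the cytosolic genes showed a small tendency. The genes of a library are not independent of each other, so such a tally describes these libraries only. Of 20, 13 were lowest in replicate 1, 65%, against 27.6% of all genes tested, and 11 were highest in replicate 2, 55%, against 36.5%. These counts were the same with DESeq2 size factors and with no scaling. The sums of their levels were 754.9, 809.7 and 784.9 RPKM. Replicate 1 was also the library that differed in Xist and Ddx3y, and the part of that difference in the tendency was not tested. Of the 17 mitochondrial genes, 4, 6 and 7 were lowest in replicates 1, 2 and 3.

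The label on which the libraries differ is the CASAVA version, 1.8.0 for replicate 3 and 1.8.2 for replicates 1 and 2. Replicate 3 was compared with the others by edgeR's quasi-likelihood test, where version, depth and library cannot be told apart. Replicate 3 stood alone on its side and gave no estimate of spread. The p-values and SE rest on the spread between replicates 1 and 2, shared over genes, and these libraries differed in Xist and Ddx3y. No synthetase passed (0 of 37), against 9 of 12147 genes, 0.0741%, of which 0.0576% were higher and 0.0165% lower in replicate 3. At an unadjusted p under 0.05 edgeR gave 1 of 37, Lars2, against 9.62% of all genes, and DESeq2 called 0 of 37, against 0.296% of all genes. At an unadjusted p under 0.05 DESeq2 gave 0 of 37, against 458 of 12147 genes. The median log2 change of the synthetases was -0.015 and that of all genes tested -0.0070, with 15 members above 0 and 22 below, beside 5919 and 6228 of all genes. The split of the members was 18 and 19 with DESeq2 size factors or no scaling, and 19 and 18 when replicate 3 was reduced to the depth of the shallowest library.

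The largest positive value was that of Lars2, at 0.60 ± 0.25 (SE) on the log2 scale with an edgeR adjusted p of 0.515. Without replicate 1 it was 1.02 and without replicate 2 it was 0.27, values with no test. The most negative were Wars2 at -0.45 ± 0.24, Pars2 at -0.37 ± 0.24 and Rars2 at -0.35 ± 0.17, all mitochondrial. In the cytosol the values ran from -0.17 for Sars to 0.19 for Aars. The summed levels of the neutrophil and of the proliferation markers were highest in replicate 3. Elane and Mpo were highest in replicate 1, and S100a8, S100a9, Ngp, Camp, Ltf and Lcn2 in replicate 3. The part of both marker lists in the changes of the synthetases was not tested.

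Genes that act beside the synthetases were counted from lists. None of the 4 elongation factor 1 genes, 4 proofreading genes, 4 mitochondrial amidotransferase and formyltransferase genes, 4 selenocysteine genes or 3 scaffolds passed the edgeR comparison. Over all genes tested 0.0741% passed, so the share in these lists is near the background. Eef1a1, which carries charged tRNA to the ribosome, had 964, 958 and 905 RPKM, and its exchange factor subunits Eef1b2, Eef1g and Eef1d had 149.8 ± 6.45, 106 ± 2.68 and 24.8 ± 2.89. Eef1a1 was the highest of these in every library, and Eef1d stood at the level of a middling synthetase.

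The amidotransferase that replaces a mitochondrial glutaminyl synthetase is built from Qrsl1 (18.7 ± 0.99 RPKM), Gatc (14.7 ± 0.089) and Gatb (5.25 ± 0.60). Gatb was the lowest of its subunits in every library. Mtfmt, which adds the formyl group to the initiator tRNA of mitochondria, had 8.97 ± 0.67 RPKM, near Mars2 (7.91 ± 0.088). Of the editing genes, Aarsd1, which clears wrongly charged alanine tRNA, had 14.9 ± 2.43 RPKM, Prorsd1 10.1 ± 1.17, Dtd1 3.79 ± 0.61 and Dtd2 1.49 ± 0.31. Tarsl2 had 1.89, 1.10 and 1.54 RPKM, far below Tars at 24.3, 26.3 and 25.1.

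In the selenocysteine pathway, which starts from a serine charged by Sars, Sephs2 had 23.2 ± 0.31 RPKM, the elongation factor Eefsec 11.6 ± 0.72, Sepsecs 9.71 ± 1.23 and the kinase Pstk 3.85 ± 0.62. Pstk was the lowest in every library.

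Of the 15 amino acid response genes, 10 could be tested and 1 was higher in replicate 3 by edgeR, against 0.0576% of all genes. This was Ppp1r15a, a phosphatase subunit that restores translation after stress, with 8.59, 7.90 and 21.1 RPKM and a log2 change of 1.36 ± 0.15 (adjusted p = 0.0448). Over 5 alternatives the adjusted p lay between 0.000284 and 0.397, and the call was lost when all genes with a count were tested. Atf4 had 119.8, 117 and 158 RPKM and a change of 0.42 ± 0.12 (edgeR adjusted p = 0.368). The list had a median change of 0.30, with 8 tested genes above 0 and 2 below, beside -0.015 for the synthetases. In the same comparison the neutrophil markers had a median of 0.59, with 7 of 8 above 0, and the proliferation markers one of 0.38, with 6 of 6 above 0; their part in the values of the list was not tested.

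The sensor kinase Eif2ak4, which binds uncharged tRNA, had 12.9 ± 0.64 RPKM and its partner Gcn1 21.4 ± 0.74. Asns, which makes asparagine, was close to absent at 0.209, 0.260 and 0.226 RPKM, whereas Nars, which charges it, had 34.6, 39.2 and 37.1. Trib3, Chac1 and Atf3 lay below 0.5 RPKM in every library as well, and with Asns and Cebpb they were the 5 genes not tested. Cebpb was higher in replicate 3, with 0.535, 0.388 and 2.33 RPKM in replicates 1, 2 and 3, from 10, 7 and 113 counts. The serine and folate genes Psat1 (43.1 ± 6.82 RPKM), Phgdh (24.4, 25.8 and 21.7 RPKM), Shmt2 (19.5 ± 2.22) and Mthfd2 (19.3 ± 4.64) lay within the range of the cytosolic synthetases. Ddit3 had 21.2 ± 1.70 RPKM, and its exons overlap 68 bases of Mars1 on the opposite strand, 1.99% of the exon bases of Mars1.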

How the data were processed

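The authors deposited raw read counts per Entrez gene with gene lengths, made with featureCounts on mm9, per the submitters' processing notes. For the aligner, annotation, strand setting and rule for shared reads, the sources used here say nothing. The 3 sample files equalled the series table. Of 26286 identifiers, 24176 matched a symbol in RefSeq for GRCm38.p6, which was used for names and promoter windows only. Overlaps and shared words came from GENCODE M21 (GRCm38). They were taken over all annotated exons and transcripts of a gene, which can be longer than the deposited gene length. Their shares therefore need not hold for the counted gene models.

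Counts were scaled by TMM (factors 1.0003, 0.997 and 1.003) in edgeR 4.0.16, with limma 3.58.1, in R 4.3.3. RPKM used the deposited lengths, and levels were taken as log2(RPKM + 0.5). filterByExpr (minimum count 10, minimum total 15) kept 12147 genes and all 37 synthetases. The comparison of replicate 3 used glmQLFit and glmQLFTest over all genes kept, with p-values adjusted by the Benjamini-Hochberg method at 0.05; the SE is the change divided by the square root of F. DESeq2 1.42.0 was an alternative. Other alternatives were TPM or CPM, pseudocounts 0.1 and 1, other scaling, no filter, thinning replicate 3 and leaving out each replicate. Both tests were checked on simulated counts. With depths of 12021576 to 32086649 counts, values cover counting error and library spread. Figures used matplotlib 3.10.9.

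The members and lists were chosen with earlier results of these data known. Named are all members by role, with the fixed lists. The codon count and the comparison with Rn28s1 were added after the values were seen. One member and one promoter piece are counted in the totals but not reported on their own here.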

Additional observations from a re-analysis of the deposited data

How the results depend on the processing

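Of 78 values recomputed under an alternative, 59 were kept. A level, or a difference of levels, was kept if it moved by less than its SD between libraries, and a difference also had to hold its direction. The median change was kept where it held its direction. The changes of Lars2 and Ppp1r15a were kept where they held their direction and their side of the threshold. Without replicate 1 or 2, where they had no test, these 2 changes were counted as moved. A number of synthetases called was kept if it stayed close to the main number, such as 14 with replicate 3 thinned beside 19. The cytosolic median was 6.16 with TPM and 6.42 with CPM, and the mitochondrial median was 4.42 and 4.58, on scales that differ from RPKM by construction. The mitochondrial median was 3.16 with a pseudocount of 0.1 and 3.30 with 1. Leaving out each replicate gave 4.90 to 4.95 for the cytosolic median, 3.22 to 3.23 for the mitochondrial one and 1.67 to 1.73 for their difference, which was 1.84 with CPM. The number of synthetases beyond counting noise was 9 to 12 with a replicate left out, where fewer libraries are compared. The median change in replicate 3 lay near 0, at 0.00082 with replicate 3 thinned and between -0.043 and 0.017 with replicate 1 or 2 left out; the cause was not tested. Vars exceeded the other cytosolic genes by 2.68 on the log2 scale and by 3.26 with CPM, which does not divide by length. Over all genes, edgeR called 9, and 23 with no scaling, 14 with replicate 3 thinned, 0 with no filter (1200 at an unadjusted p under 0.05) and DESeq2 36; 0 synthetases were called in each. The comparison of replicate 3 has no test without replicate 1 or 2, and no value without replicate 3. No paired analysis was possible because the libraries form 1 group. Depth limits Ears2 most, with 34 counts in replicate 1.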
